A study of Glycine max with 4 samples.

Results

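A divergent start pair is a region of transcription starts on the minus strand followed by a region of starts on the plus strand, so that the 2 transcripts leave a common stretch of DNA in opposite directions. Pairs were found by position alone. Clusters of starts from the shoot and root lists were joined when they lay at most 100 bp apart on the same strand, which gave 23330 merged regions on 20 sequences. A minus-strand region and the next plus-strand region were kept when the plus-strand region began 1 to 1000 bp past the end of its partner and no base of another merged region lay between them. This gave 176 pairs with 352 member regions, 1.51% of all merged regions.

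In plants as in animals, genes that lie head to head can share the DNA between their start sites, which is then called a bidirectional promoter. Such a stretch can hold separate core promoters, one for each strand, that draw on common regulatory elements, or elements that serve 1 strand more than the other. Capped transcripts on the side without a known gene are also found near some promoters, and they are often scarce.

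The data come from nanoCAGE, a method that reads capped RNA at its 5′ end, so that a tag marks the base where a transcript starts. The groups were 2 shoot libraries and 2 root libraries of the soybean cultivar Williams 82, an untransformed genotype shared by both tissues. The seedlings were 2 weeks old and were kept in white light for 12 h a day, at 300 µmol per square metre each second, and 1 µg of total RNA went into each library. The labels number the replicates but do not say that they came from separate plants, so the p-values below speak of the spread among these 4 libraries alone, which may be technical spread.

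Counts per library cover sequences 1 to 12 and most of sequence 13, with 901261 and 655935 tags in shoot and 1000476 and 874004 tags in root. Between 86.8% and 88.2% of a library's tags fell in merged regions. Of the 176 pairs, 124 have counts for both members, and the other 52 have only the authors' pooled TPM (tag numbers scaled to a common library size), 1 value per tissue with no replicate. The files name sequences and positions but no genes, so the pairs are named by sequence number, strand and coordinates, the labelled tissues were not checked against marker genes, and no DNA sequence is shown. The sources used here do not give the genome build. Many soybean genes exist in near-identical copies, whose tags may have been split or pooled in the authors' processing, which leaves each single region uncertain.

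The gap between the members of a pair had a median of 470.5 bp and ran between 6 and 1000 bp. The quartiles were 198.75 and 767.5 bp. Measured between the most used start of each member, the median distance was 500.5 bp, within a range of 7 to 1072 bp. Gaps of 1 to 100 bp and of 101 to 200 bp held 23 pairs each, the most of any 100 bp step, and gaps of 501 to 600 bp held 12, the fewest. Divergent neighbours within 1000 bp averaged 17.6 pairs per 100 bp of gap, against 17.1 among the 684 divergent neighbours at 1001 to 5000 bp. Their number per 100 bp of gap was thus about the same on either side of the limit. Facing neighbours, a plus-strand region followed by a minus-strand region, averaged 29.0 pairs per 100 bp within 1000 bp (290 pairs), against 5.83 at 1001 to 5000 bp. Neighbours on the same strand averaged 208 per 100 bp (2080 pairs), against 47.9 at the larger gaps. Joining clusters on the same strand leaves no such neighbours at gaps of 1 to 100 bp, so their average is not on the same footing. No test was made of these differences in number.

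**Figure D1:**
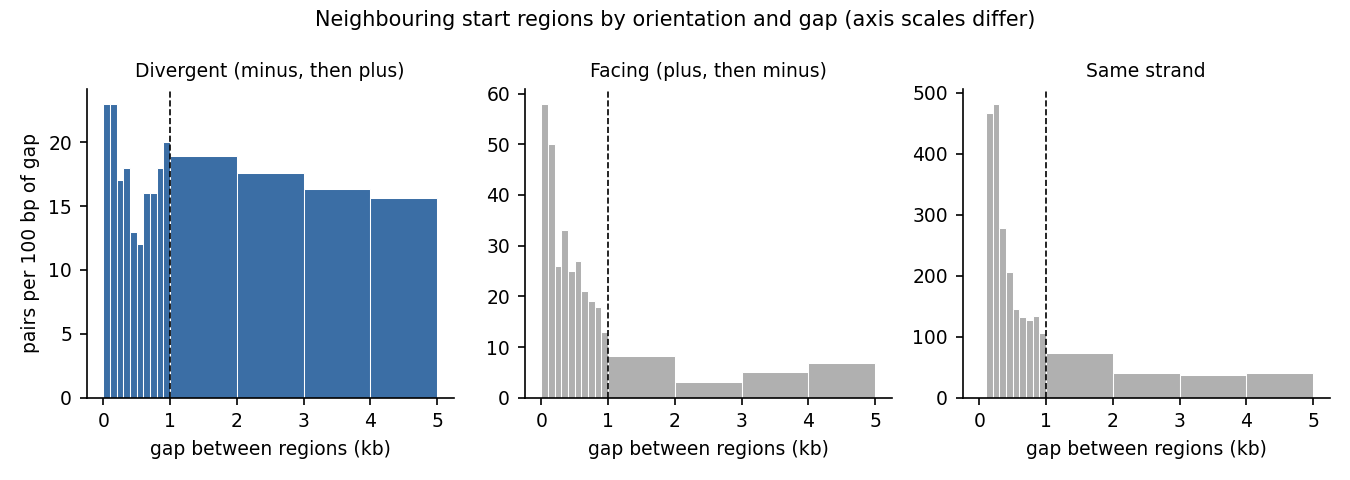
Pairs of neighbouring start regions per 100 bp of gap (y) against the gap in kb (x), in 1 panel per orientation with its own scale; bars span 100 bp up to the dashed line at 1 kb and 1000 bp beyond it. Divergent pairs lie between 12 and 23 per 100 bp up to 1 kb and between 15.6 and 18.9 beyond it, whereas facing and same-strand pairs are most frequent at gaps under 0.5 kb. The first same-strand bar is empty because clusters up to 100 bp apart were joined.

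Every one of the 20 sequences held divergent pairs, with 3 on sequence 18 and 14 on sequence 10 as the lowest and highest numbers. The smallest gap, 6 bp, separated the minus-strand region at 8223564 to 8223569 of sequence 6 from a single plus-strand start at 8223575. The pair just inside the limit, on sequence 11 with a gap of 1000 bp, had a minus-strand region at 17999919 to 17999962 with 7.51 TPM in pooled shoot and 10.9 TPM in pooled root. The plus-strand region at 18000962 to 18000965 had 81.1 TPM in shoot and 44.2 TPM in root. The pair just outside, on sequence 13 with a gap of 1011 bp, had a single minus-strand start at 31576139 with 0 TPM in shoot and 1.43 TPM in root. Its plus-strand region at 31577150 to 31577156 had 10.4 TPM in shoot and 4.30 TPM in root.

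Member regions were narrow. Their median width was 2 bp with 2 start positions, against 5 bp and 3 start positions in the 22978 other regions. A single position made up 171 of the 352 members (48.6%) and 40.3% of the other regions. The median level was 2.92 TPM in shoot and 2.29 TPM in root among members, against 2.93 TPM in shoot and 3.44 TPM in root among other regions. Only 16 members (4.55%) reached 100 TPM in a tissue, against 6.97% of the other regions. The authors' cluster lists placed 176 members (50%) in both tissues, 92 (26.1%) in the shoot list alone and 84 (23.9%) in the root list alone. Among other regions those shares were 55.6%, 17.4% and 26.9%.

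The members of a pair often differed in strength. Over the mean TPM of both tissues, the stronger member had a median of 8.95 TPM and the weaker 1.45 TPM, with a median ratio of 3.85 between them. The stronger member exceeded the weaker by 5-fold or more in 71 pairs (40.3%) and by 20-fold or more in 27 (15.3%). In 38 pairs (21.6%) both members reached 5 TPM. Members within 2-fold of each other were found in 36 of 144 pairs with TPM above 0 for both members in shoot (25%) and in 38 of 138 in root (27.5%). Neither strand prevailed, with the plus-strand member stronger in 86 pairs, the minus-strand member stronger in 83, and 7 equal. Stronger members were also wider, with a median of 16 bp against 1 bp for the weaker. A single position made up 48 of the stronger members (27.3%) and 123 of the weaker (69.9%). A region with few tags can show only few positions, so width was not measured apart from level here. In pooled shoot 144 pairs had both members above 0 TPM, with a median ratio of stronger to weaker of 4.15, and 28 pairs had 1 member at 0. In pooled root 138 pairs had both above 0, with a median ratio of 4.29, and 26 had 1 member at 0.

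**Figure D2:**
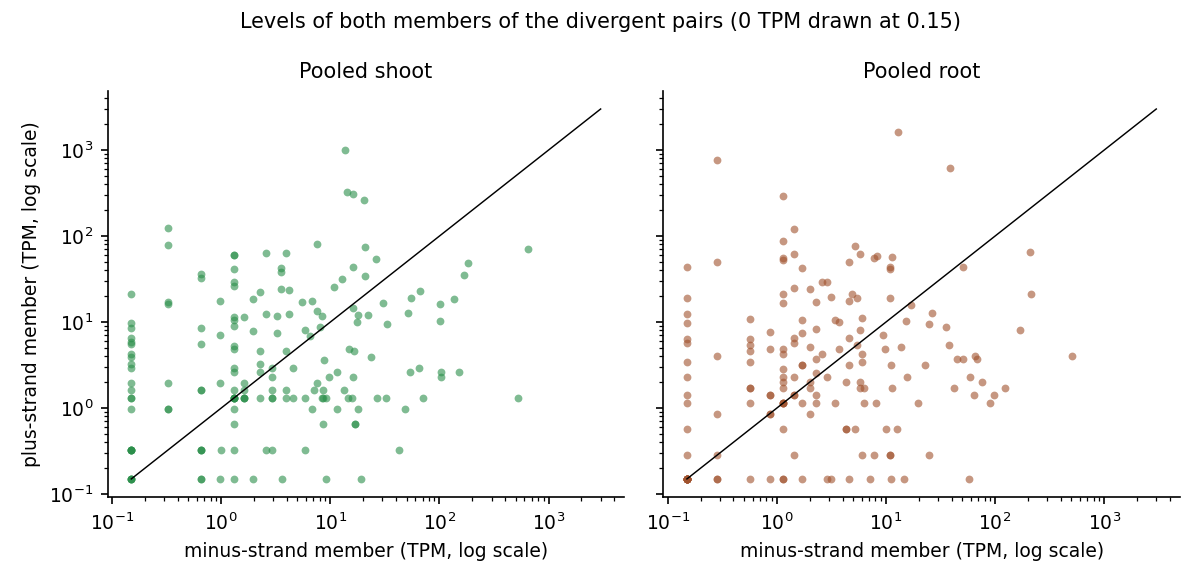
Pooled TPM of the plus-strand member (y) against the minus-strand member (x) of all 176 divergent pairs, on log axes, for shoot (left) and root (right), with 0 TPM drawn at 0.15; each point is a pair and the line marks equal levels. Points spread on both sides of the line in either tissue, and most pairs combine a weak and a stronger member.

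The rule keeps other merged regions out of the gap, so that few tags there follow from the choice of pairs. Single starts outside any region still lay in most gaps. In 11 pairs (6.25%) no start lay in the gap, and the median was 5 start positions per gap. They were spread over both strands, with 677 on the minus strand and 599 on the plus strand. Their TPM came to 3.97% of the TPM of gaps and pairs together in shoot and 3.32% in root. The most used start of a member was the same base in both tissues in 208 of the 266 members with TPM above 0 in both (78.2%). Among members at 5 TPM or more in both tissues it was the same in 74 of 98 (75.5%), and among all regions at that level in 5188 of 6872 (75.5%). A region of a single position has the same base in both tissues by definition, and such regions were kept in these shares. The like shares therefore do not show that wider members kept their base as often as other wider regions.

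Whether members are used more in shoot or in root was tested on the counts with edgeR's quasi-likelihood test over all 7183 merged regions that passed a filter on low counts, with Benjamini-Hochberg adjustment over all of them. Of the 248 members with counts, 109 (44.0%) passed the filter, close to the 45.6% of all covered regions. The 139 that did not had between 4 and 36 tags in all 4 libraries together, with a median of 9. Of the 109 tested members, 43 (39.4%) were called higher in shoot, where the share over all tested regions was 29.5%. Another 16 (14.7%) were called higher in root, where the share over all tested regions was 23.4%. The remaining 50 were not called. Calls in either direction thus made up a share of members close to the 52.9% over all tested regions, but more of them were in shoot. The median log2 difference of shoot minus root was 0.67 among tested members and 0.06 among all tested regions.

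The split depends in part on scaling. The main fit scaled libraries by TMM (trimmed mean of M values), and 72.9% of the called members were higher in shoot, against 55.7% of all called regions. With scaling to total tags the median log2 difference of all tested regions was -0.32, and 35 members were called higher in shoot and 21 in root, so that 62.5% of called members and 43.4% of all called regions were higher in shoot. The excess of shoot calls among members over that among all regions was there under both scalings. In bulk tissue, fewer cells that use a start and less RNA from it in each cell cannot be told apart.

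Large differences were also more often in the direction of shoot. A fitted difference of over 8-fold was found in 27 tested members toward shoot (24.8%) and in 4 toward root (3.67%), against 15.6% and 9.31% of all tested regions. Among called members the median log2 difference was 3.92 for those higher in shoot and -2.13 for those higher in root. Over all called regions these medians were 3.18 and -2.44. Both shoot libraries lay above both root libraries in 66 tested members (60.6%), against 41.3% of all tested regions. Both root libraries lay above both shoot libraries in 28 (25.7%), against 37.5%. No tags were found in root for 7 of the 43 members called higher in shoot (16.3%, against 15.9% of all regions called higher in shoot). No tags were found in shoot for 1 of the 16 called higher in root (6.25%, against 5.70% of all regions called higher in root). Both strands took part, with 21 of 50 tested minus-strand members and 22 of 59 tested plus-strand members called higher in shoot, and 6 and 10 called higher in root.

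The members of a pair were seldom called together. Both passed the filter in 30 of the 124 pairs, 1 did in 49 and neither in 45. Among the 30, both members were called higher in shoot in 7, where the share over all 311 tested neighbouring pairs of any orientation within 1000 bp was 32.2%. Both were called higher in root in 0, where that share was 14.5%. At an unadjusted p under 0.05, both were higher in root in 0 by edgeR and in 0 by DESeq2, and in the edgeR fit with no count filter 2 of 124 pairs had both called higher in root. In 1 pair the members were called in opposite directions (3 without root replicate 1 and 2 without shoot replicate 2), in 16 pairs 1 member was called, and in 6 pairs neither was. Calls in the same direction thus made up 23.3% of the 30, where the share over the 311 pairs was 46.6%. Calls in opposite directions made up 2.89% of those 311 pairs. Most of those 311 pairs were neighbours on the same strand, which were called in the same direction in 135 of 272 (49.6%). Facing neighbours within 1000 bp were called in the same direction in 3 of 9. Divergent neighbours at 1001 to 5000 bp were so called in 17 of 109 (15.6%), 10 of them higher in shoot and 7 higher in root. Among the 49 pairs with 1 tested member, that member was called higher in shoot in 19, higher in root in 8 and not called in 22.

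Of the 7 pairs with both members higher in shoot, 4 are described here. Among pairs with both members at 20 CPM or more in shoot, their less changed members had the largest log2 differences. The pairs on sequence 10 with a gap of 599 bp and on sequence 4 with a gap of 469 bp also belong to the 7 and are described below. On sequence 1, the minus-strand region at 54609762 to 54609968, a broad region with 117 start positions, had 1164 and 834 tags in shoot, against 5 and 2 in root. In CPM, the tag counts scaled with the TMM factors to equal library sizes, this was 1720 ± 33.6 CPM in shoot and 3.82 ± 2.04 CPM in root (SD, n = 2 each). The log2 difference was 8.73 ± 0.42 (SE; edgeR adjusted p = 3.71e-07). Without root replicate 1 it was 9.38. The shoot libraries lay far above both root libraries. Its partner 349 bp away, the plus-strand region at 54610317 to 54610380, had 118 and 100 tags in shoot, against 3 and 3 in root. It averaged 191 ± 26.3 CPM in shoot and 3.36 ± 0.287 CPM in root, with a log2 difference of 5.76 ± 0.40 (edgeR adjusted p = 1.76e-06). Both strands of this stretch were therefore used in shoot and had few tags in root, although not in fixed proportion. The plus-strand member held 9.20% and 10.7% of the pair's CPM in shoot, against 37.5% and 60.0% in root, where it rests on 6 of 13 tags. That change in balance, -2.97 on the log2 scale, had an edgeR adjusted p of 0.0154, which was 0.0580 without root replicate 1, 0.186 without root replicate 2, 0.0732 without shoot replicate 1 and 0.0677 with no count filter. The log2 change was -3.73 without root replicate 1.

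A pair on sequence 11 with a gap of 256 bp had no tags in root on either strand. Its minus-strand region at 7910022 to 7910031 had 81 and 78 tags in shoot, against 0 and 0 in root. The level in shoot was 141 ± 31.9 CPM, at least 84.0-fold higher than root when root is set to a floor of 3 tags over its libraries (edgeR adjusted p = 6.03e-06). The plus-strand region at 7910287 to 7910350 had 27 and 12 tags in shoot, against 0 and 0 in root. It averaged 32.2 ± 10.1 CPM in shoot, at least 19.3-fold higher (edgeR adjusted p = 0.000147).

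A further pair on sequence 11, with a gap of 152 bp, showed the same pattern at lower levels. The minus-strand region at 7488798 to 7488864 had 29 and 26 tags in shoot, against 0 and 0 in root. This was 48.3 ± 8.56 CPM in shoot, at least 28.9-fold higher (edgeR adjusted p = 7.35e-05). The plus-strand region at 7489016 to 7489061 had 22 and 15 tags in shoot, against 0 and 0 in root, or 31.7 ± 0.494 CPM in shoot, at least 18.9-fold higher (edgeR adjusted p = 0.000105). Of these 2 pairs on sequence 11, neither had a called change in balance (edgeR adjusted p = 0.652 and 0.635), but with no root tags on either strand a balance in root is not defined.

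On sequence 2, a pair with a gap of 906 bp combined a member without root tags and a member with a clear root level. The minus-strand region at 15598394 to 15598413 had 44 and 20 tags in shoot, against 0 and 0 in root, or 53.0 ± 15.8 CPM in shoot, at least 31.6-fold higher (edgeR adjusted p = 7.44e-05). The plus-strand region at 15599319 to 15599392 had 145 and 88 tags in shoot, against 24 and 19 in root. It averaged 198 ± 19.3 CPM in shoot and 23.9 ± 1.90 CPM in root, a log2 difference of 3.04 ± 0.30 (edgeR adjusted p = 1.75e-05). The plus-strand member held 76.7% and 81.5% of the pair's CPM in shoot, against 100% in both root libraries (edgeR adjusted p of the balance = 0.00585).

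The bounds for members without root tags scale with the depth of root. Without 1 of the root libraries, the floor of 3 tags is reached over a single library, and the bounds of the members given here that had no root tags lay between 8.90-fold and 44.5-fold.

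Whether the balance between the strands differed between tissues was tested directly, by a term for region and tissue within each pair, with edgeR's diffSpliceDGE. P-values were adjusted over all 311 neighbouring pairs of any orientation. The balance differed in 20 of the 30 divergent pairs (66.7%), where the share over all 311 pairs was 14.8%. It differed in 24 of 272 same-strand neighbours (8.82%) and in 2 of 9 facing neighbours. The median level of the weaker region was 24.4 CPM in divergent pairs, 17.5 CPM in facing and 21.6 CPM in same-strand neighbours. For the stronger region the medians were 82.4, 47.1 and 70.0 CPM, so that divergent pairs stood highest in both. In 13 of the 20 pairs 1 member was called between tissues, 7 of them higher in shoot and 6 higher in root. In 6 pairs both members were called, and in 1, on sequence 3 with a gap of 152 bp, neither was. The difference in share between orientations was not itself tested.

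**Figure D3:**
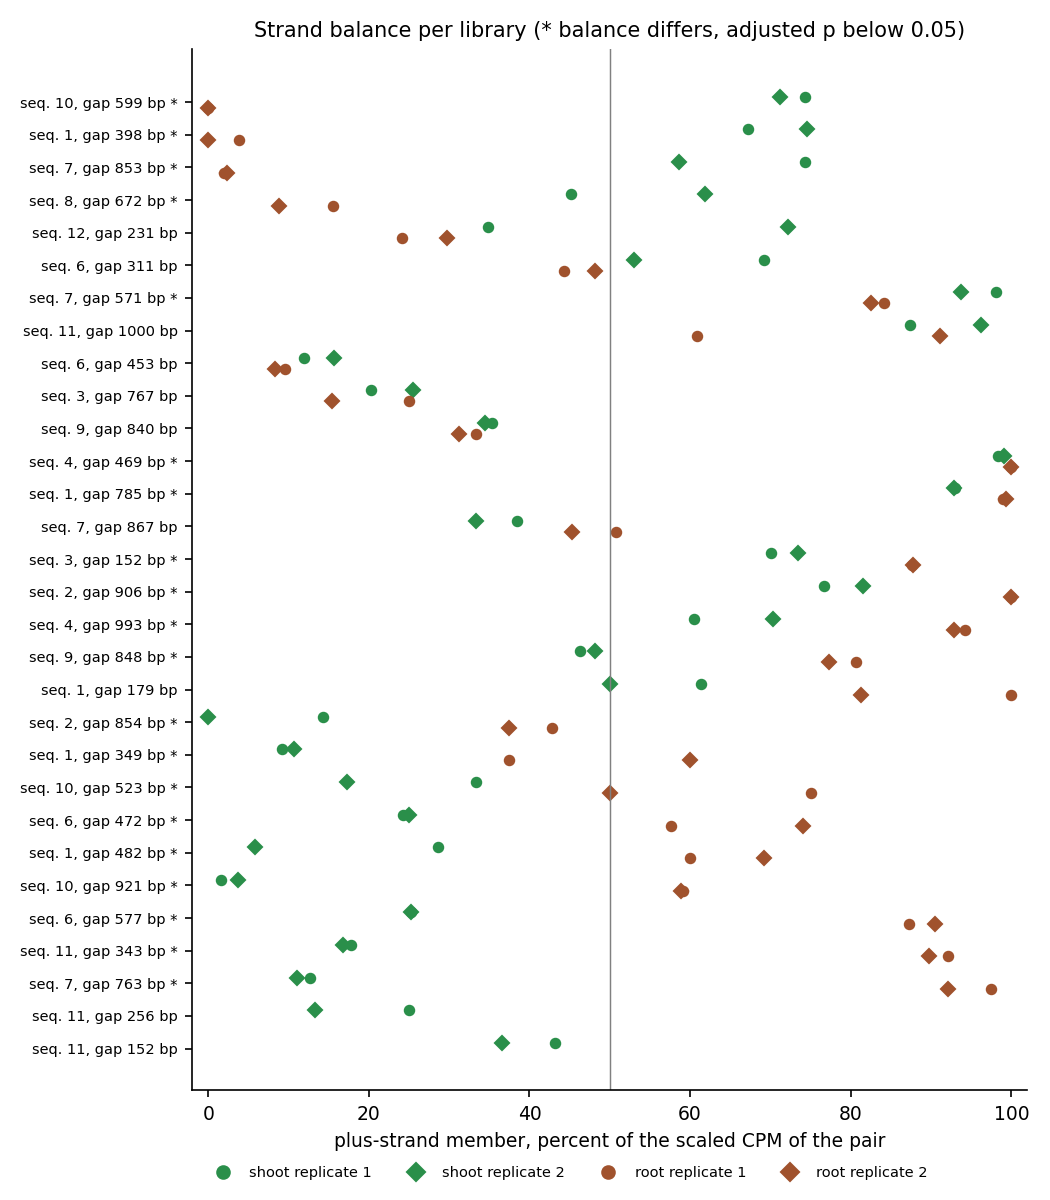
Share of the pair's scaled CPM on the plus-strand member (x, percent) in each library of the 30 divergent pairs with both members tested (1 row per pair, ordered by the difference between tissues); green marks are shoot, brown marks root, circles replicate 1 and diamonds replicate 2, the grey line marks 50%, and an asterisk a called balance. The pairs on sequence 11 with gaps of 152 and 256 bp had no root tags, so they are drawn lowest, with no root mark. Above these rows, shoot and root marks lie far apart toward the top and the bottom. Replicates of a tissue lie close together in most rows.

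The stronger strand itself changed between tissues in 14 of the 30 pairs, and in 12 of these the balance was called. In 8 of the 12 the minus-strand member was the stronger in shoot and the plus-strand member in root. In the other 4 the plus-strand member was the stronger in shoot. Which strand gains in shoot was therefore not fixed. For some of the 12 the exact 95% counting interval of the plus-strand share took in equal shares in a tissue. In shoot these were the pairs on sequence 8 with a gap of 672 bp (37.6 to 66.0%) and on sequence 9 with 848 bp (37.0 to 57.9%). In root they were the pairs on sequence 10 with gaps of 921 bp (42.1 to 74.4%) and 523 bp (40.6 to 81.2%).

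The pair with the largest fitted change of balance lay on sequence 7, with a gap of 763 bp. Its minus-strand region at 5369670 to 5369796 had 242 and 178 tags in shoot, against 1 and 3 in root. It averaged 362 ± 13.8 CPM in shoot and 2.31 ± 1.78 CPM in root, a log2 difference of 7.23 ± 0.42 (edgeR adjusted p = 5.12e-07). Its plus-strand partner at 5370559 to 5370593 had 35 and 22 tags in shoot, against 38 and 35 in root. That region averaged 48.5 ± 3.54 CPM in shoot and 40.8 ± 1.12 CPM in root and was not called (log2 difference 0.26 ± 0.34, edgeR adjusted p = 0.549). The called difference thus lay on the minus strand, and its size rests on 4 root tags. The plus-strand member held 12.6% and 11% of the pair's CPM in shoot, against 97.4% and 92.1% in root. Over the tags of both libraries its share was 11.9% in shoot (exact 95% interval 9.18 to 15.2) and 94.8% in root (87.2 to 98.6), where intervals here and below cover counting error only. The log2 change of the plus to minus ratio was -6.98 (edgeR adjusted p = 1.33e-06), -6.37 without root replicate 1 and -7.92 without root replicate 2. The minus-strand log2 difference was 6.58 and 8.18 without those libraries.

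On the same sequence, a pair with a gap of 853 bp was weighted the other way. Its plus-strand region at 47287504 to 47287626 had 107 and 61 tags in shoot, against 2 and 3 in root. It averaged 142 ± 20.1 CPM in shoot and 2.83 ± 1.03 CPM in root, a log2 difference of 5.59 ± 0.44 (edgeR adjusted p = 3.82e-06). Its minus-strand partner at 47286578 to 47286651 had 37 and 43 tags in shoot, against 103 and 122 in root. That region averaged 71.9 ± 25.4 CPM in shoot and 127 ± 25.8 CPM in root, with libraries that did not overlap, and a log2 difference of -0.84 ± 0.33 that just missed the threshold (edgeR adjusted p = 0.0533, 0.00785 to 0.363 over the alternatives). The strands thus leaned toward different tissues. The plus-strand member held 74.3% and 58.7% of the pair's CPM in shoot, against 1.90% and 2.40% in root, a log2 change of the ratio of 6.42 (edgeR adjusted p = 1.97e-06).

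On sequence 10, a pair with a gap of 599 bp had both members higher in shoot but to unequal extents. Its plus-strand region at 2322310 to 2322325 had 78 and 57 tags in shoot, against 0 and 0 in root. This was 116 ± 3.89 CPM in shoot, at least 69.6-fold higher (edgeR adjusted p = 6.28e-06). Its minus-strand region at 2321662 to 2321711 had 27 and 23 tags in shoot, against 6 and 4 in root, or 43.7 ± 6.18 CPM in shoot and 5.53 ± 1.11 CPM in root. The log2 difference was 2.92 ± 0.48 (edgeR adjusted p = 0.000500). In shoot the plus-strand member held 74.3% and 71.2% of the pair's CPM. In root it had 0 of 10 tags, which allows a share of up to 30%, and the balance was called (edgeR adjusted p = 0.000845).

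On sequence 1, a pair with a gap of 398 bp had a plus-strand member of a single base. The start at 58529411 had 41 and 38 tags in shoot, against 1 and 0 in root. It averaged 69.6 ± 13.9 CPM in shoot and 0.526 ± 0.744 CPM in root, a ratio of 132 with an exact 95% counting interval of 21.2 to 4863 (edgeR adjusted p = 3.24e-05). Without root replicate 1 no root tag was left. Its minus-strand partner at 58529002 to 58529013 had 20 and 13 tags in shoot, against 25 and 13 in root, and was not called (28.2 ± 1.39 CPM in shoot and 20.9 ± 7.68 CPM in root, edgeR adjusted p = 0.452). The plus-strand share was 67.2% and 74.5% in shoot, against 3.85% and 0% in root, and the balance was called (edgeR adjusted p = 0.000103).

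**Figure D4:**
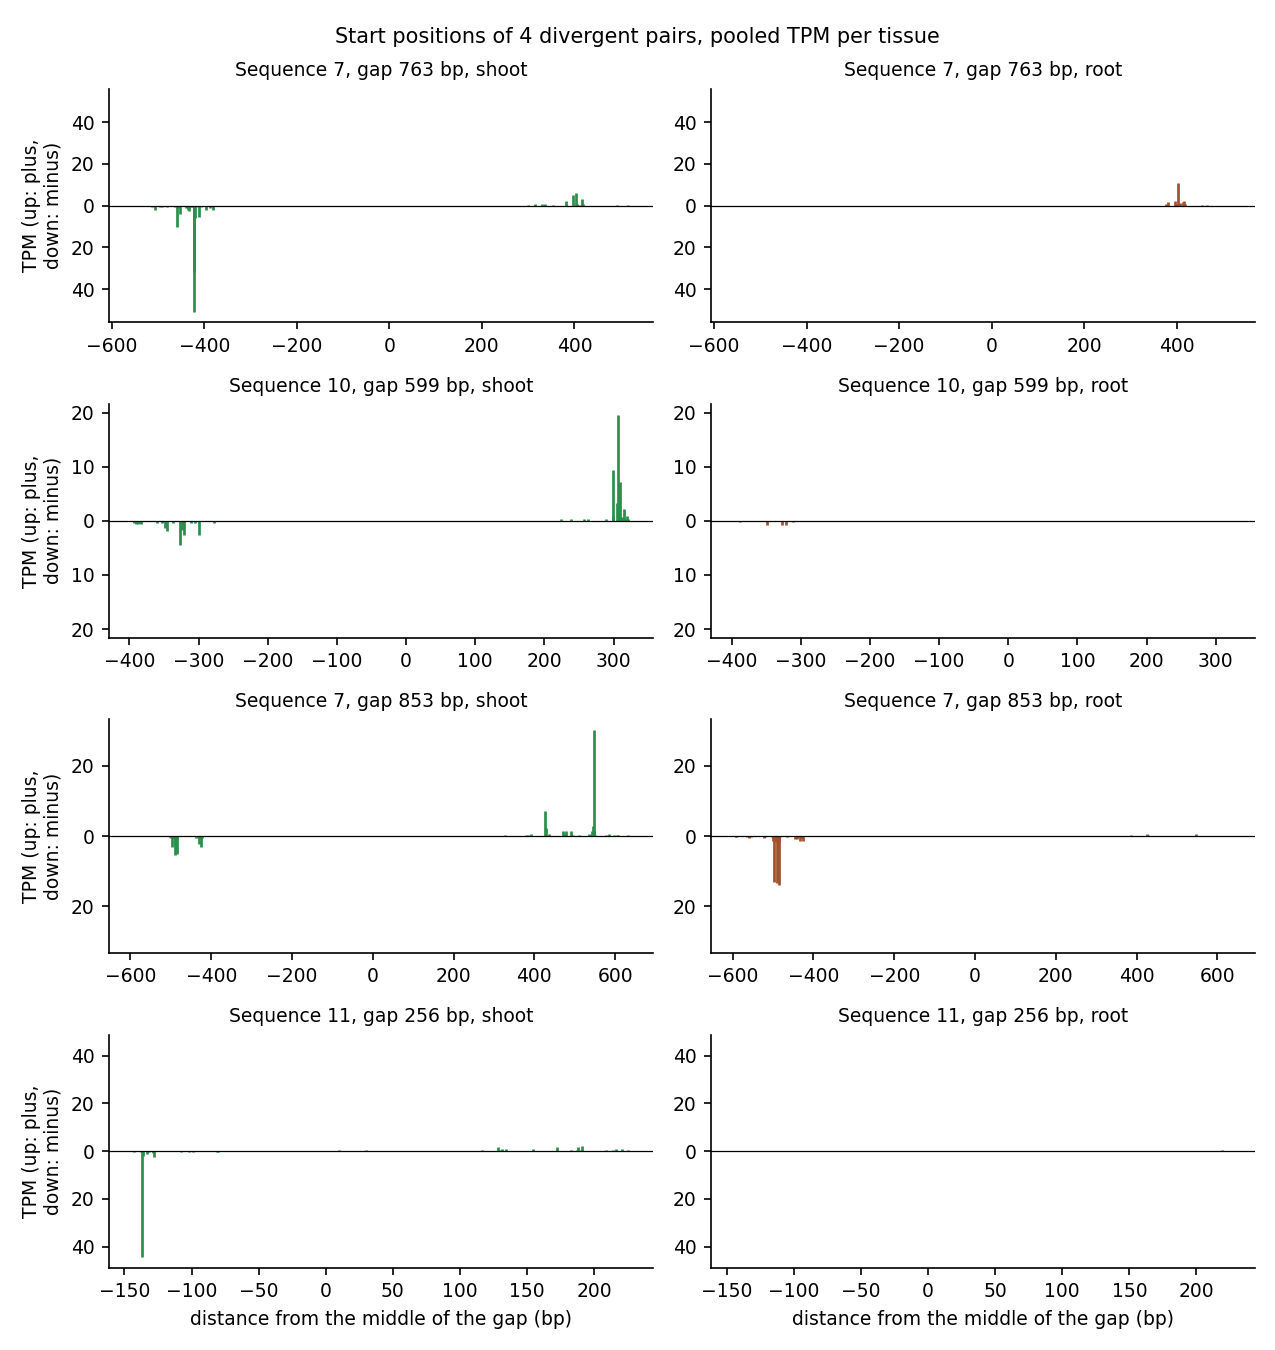
Pooled TPM of each start position (y, plus strand upward and minus strand downward) against distance from the middle of the gap in bp (x), for the divergent pairs on sequence 7 with gaps of 763 and 853 bp, on sequence 10 with a gap of 599 bp and on sequence 11 with a gap of 256 bp, with shoot on the left and root on the right at 1 scale per pair. In the first 3, 1 strand is strong in shoot and at or near 0 in root while the other has starts in both tissues, and in the pair on sequence 11 both member regions are at 0 in root.

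Further pairs in which the stronger strand differed were picked out after their values were seen. On sequence 11, with a gap of 343 bp, the minus-strand region at 4583941 to 4584116 had 310 and 203 tags in shoot, against 5 and 5 in root (438 ± 19.3 CPM in shoot and 5.60 ± 0.479 CPM in root). Its plus-strand partner at 4584459 to 4584509 had 67 and 41 tags in shoot, against 58 and 44 in root. That region averaged 91.7 ± 8.43 CPM in shoot and 56.6 ± 6.20 CPM in root, with both shoot libraries above both root libraries, and was not called (log2 difference 0.70 ± 0.29, edgeR adjusted p = 0.0678). The plus-strand share was 17.8% and 16.8% in shoot, against 92.1% and 89.8% in root, and the log2 change of the ratio was -5.56 (edgeR adjusted p = 1.33e-06). Both members thus stood higher in shoot, the minus-strand member by far more. On sequence 6, with a gap of 577 bp, the minus-strand region at 11933336 to 11933377 had 136 and 71 tags in shoot, against 6 and 2 in root. Its partner at 11933954 to 11933966 had 46 and 24 tags in shoot, against 41 and 19 in root (log2 change of the ratio -4.40, edgeR adjusted p = 0.000141).

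In other pairs the called member was the one higher in root. On sequence 8, with a gap of 672 bp, the minus-strand region at 3937511 to 3937540 had 17 and 8 tags in shoot, against 71 and 62 in root (log2 difference -1.80 ± 0.36, edgeR adjusted p = 0.00177). Its partner, a single start at 3938212, had 14 and 13 tags in shoot, against 13 and 6 in root. It averaged 23.8 ± 4.79 CPM in shoot and 10.4 ± 4.63 CPM in root, with both shoot libraries above both root libraries, and was not called (log2 difference 1.14 ± 0.49, edgeR adjusted p = 0.0751). The plus-strand share was 45.2% and 61.9% in shoot, against 15.5% and 8.82% in root (edgeR adjusted p of the balance = 0.00164). On sequence 1, with a gap of 482 bp, the plus-strand region at 59437878 to 59437881 had 4 and 1 tags in shoot, against 39 and 27 in root (log2 difference -3.06 ± 0.58, edgeR adjusted p = 0.00122). Its minus-strand partner at 59437308 to 59437396 had 10 and 16 tags in shoot, against 26 and 12 in root, and was not called. In both of these pairs a member higher in root lay beside one that was not called.

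The pair with the highest summed CPM lay on sequence 4, with a gap of 469 bp. Its plus-strand region at 2323546 to 2323626 had 1778 and 1391 tags in shoot, against 1350 and 1331 in root. It averaged 2750 ± 224 CPM in shoot and 1501 ± 113 CPM in root, a log2 difference of 0.87 ± 0.28 (edgeR adjusted p = 0.0225, and 0.00728 to 0.163 over the alternatives). That call was lost with scaling to total tags (adjusted p = 0.163), without shoot replicate 2 (0.0710) and with DESeq2 (0.0536). Its minus-strand partner at 2322969 to 2323077 had 29 and 13 tags in shoot, against 1 and 0 in root. It averaged 34.7 ± 10.7 CPM in shoot and 0.526 ± 0.744 CPM in root, a ratio of 66.0 with an exact 95% counting interval of 11 to 2614 (edgeR adjusted p = 0.000154), and its 1 root tag came from root replicate 1. The plus strand held 98.4% and 99.1% of the pair's CPM in shoot, against 99.9% and 100% in root (edgeR adjusted p of the balance = 0.000205). The minor strand of this strong pair was thus seen almost wholly in shoot.

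The pair with the next highest sum was also the 1 pair with calls in opposite directions. It lay on sequence 1, with a gap of 785 bp. Its plus-strand region at 625488 to 625520 had 449 and 376 tags in shoot, against 2449 and 3134 in root. It averaged 720 ± 93.2 CPM in shoot and 3149 ± 810 CPM in root, a log2 difference of -2.13 ± 0.31 (edgeR adjusted p = 0.000243). Its minus-strand partner at 624631 to 624703 had 34 and 29 tags in shoot, against 25 and 20 in root, or 55.1 ± 7.84 CPM in shoot and 25 ± 1.81 CPM in root. The log2 difference was 1.12 ± 0.37 (edgeR adjusted p = 0.0242, and 0.0282 to 0.129 over the alternatives). This weaker call was lost with scaling to total tags (adjusted p = 0.106), without root replicate 2 (0.0586), without shoot replicate 2 (0.0871) and with DESeq2 (0.129). The change of the plus to minus ratio, -3.25 on the log2 scale, was called in the main fit (edgeR adjusted p = 2.03e-05) and had adjusted p-values of 1.99e-11 to 0.000862 over the alternatives.

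Of the other pairs among the 5 with the highest sums, that on sequence 1 with both members higher in shoot is described above. A pair on sequence 2 with a gap of 836 bp was close to one-sided. The plus-strand region at 5097280 to 5097388 had 214 and 170 tags in shoot, against 583 and 443 in root, or 334 ± 30.8 CPM in shoot and 570 ± 61.8 CPM in root. The log2 difference was -0.77 ± 0.25 (edgeR adjusted p = 0.0223, and 0.00289 to 0.164 over the alternatives). The call was lost without root replicate 1 (adjusted p = 0.0636), without shoot replicate 1 (0.164), without shoot replicate 2 (0.0907) and with DESeq2 (0.0792). The single minus-strand start at 5096444 had 0 and 1 tags in shoot, against 2 and 2 in root, and was not tested.

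Pairs with no called member can still be well used. On sequence 6, with a gap of 453 bp, the minus-strand region at 1588938 to 1588945 had 169 and 145 tags in shoot, against 415 and 322 in root. It averaged 275 ± 40.2 CPM in shoot and 410 ± 38.4 CPM in root and was not called (edgeR adjusted p = 0.0707, and 0.00719 to 0.376 over the alternatives), although its libraries did not overlap. With scaling to total tags it was called higher in root (log2 difference -0.97, adjusted p = 0.00719). Its partner at 1589398 to 1589475 had 23 and 27 tags in shoot, against 44 and 29 in root, with 45.0 ± 16.2 CPM in shoot and 40.4 ± 8.38 CPM in root (edgeR adjusted p = 0.814). The balance of this pair was not called (edgeR adjusted p = 0.322). In 3 further pairs without a call the weaker member had too few tags to be tested. On sequence 12, with a gap of 901 bp, the minus-strand region at 7174873 to 7174940 averaged 141 ± 10.5 CPM in shoot and 191 ± 40.0 CPM in root (edgeR adjusted p = 0.190, and 0.0260 to 0.582 over the alternatives). This region too was called higher in root with scaling to total tags (log2 difference -0.82, adjusted p = 0.0260). On sequence 6, with a gap of 139 bp, the minus-strand region at 114301 to 114339 averaged 169 ± 20.4 CPM in shoot and 149 ± 23.0 CPM in root (edgeR adjusted p = 0.561). On sequence 5, with a gap of 270 bp, the plus-strand region at 41197158 to 41197169 averaged 169 ± 47.6 CPM in shoot and 119 ± 28.5 CPM in root (edgeR adjusted p = 0.188). The untested partners of these 3 had 9 to 16 tags in all.

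Among pairs with 1 tested member, picked out after their values were seen, large differences ran in both directions. On sequence 8, with a gap of 497 bp, the plus-strand member at 13955449 to 13955473 had 45 and 28 tags in shoot, against 0 and 0 in root, at least 37.1-fold higher. On sequence 12, with a gap of 14 bp, the plus-strand member at 7618214 to 7618219 had 0 and 0 tags in shoot, against 31 and 31 in root. The level in root exceeded that in shoot by at least 13.5-fold. Of the members called higher in root, this was the 1 without shoot tags.

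Partners' tissue differences were only loosely related. Across the 30 pairs with both members tested, the log2 difference of the plus-strand member and that of the minus-strand member had a Pearson r of 0.43 and a Spearman rho of 0.29. Without the 4 pairs in which a member had no root tags these were 0.19 and 0.01 (n = 26, a subset chosen after the data were seen), and without root replicate 2 r was 0.27. In the 13 pairs with gaps of up to 500 bp r was 0.66, and in the 17 with larger gaps 0.13. Without the pairs that had no root tags for a member, r was 0.40 (n = 11) at the shorter and -0.09 (n = 15) at the larger gaps. Among the 272 same-strand neighbours r was 0.88 and rho 0.85, or 0.79 and 0.75 in the 216 with tags of both regions in both tissues. Among the 9 facing neighbours r was 0.88 and rho 0.70, or 0.34 and 0.36 in the 7 with such tags. Among the 109 divergent neighbours at 1001 to 5000 bp r was 0.27 and rho 0.14. These are descriptions across pairs that share the same 4 libraries and their scaling, and pairs are not replicates. The median absolute log2 ratio of plus-strand to minus-strand CPM was 1.62 in shoot (n = 30) and 2.21 in root (n = 26), and in shoot it was also 1.62 over the 26 pairs measured in both. Over all 124 pairs with counts, with 0.5 added to the tags, the order turned, with 2.18 in shoot and 1.91 in root.

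**Figure D5:**
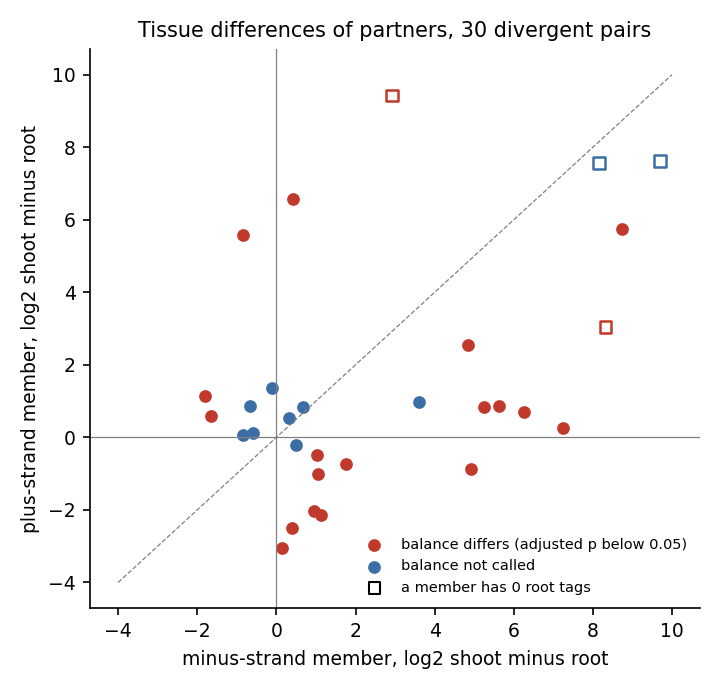
Log2 difference of shoot minus root of the plus-strand member (y) against that of the minus-strand member (x) for the 30 divergent pairs with both members tested; red marks have a called balance, blue marks do not, open squares have a member with no root tags and stand at fitted values that are not measured folds, and the dashed line marks equal differences. Many points lie close to 1 axis and away from the dashed line, and r is 0.43 with the open squares and 0.19 without them.

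Pooled TPM extend the description to all 176 pairs, with no replicates and no test. With 1 TPM added to each value, 34 of the 352 members (9.66%) were 5-fold or more higher in shoot, where the share over all regions was 8.04%. Another 16 (4.55%) were 5-fold or more higher in root, where the share over all regions was 7.78%. On the shoot side these were 28 of the 248 members with counts (11.3%) and 6 of the 104 members without counts (5.77%). Against the share over all regions, that in shoot was higher among members with counts and lower among those without. No share was taken over all regions with counts or all regions without them, so the 2 sets of members have no matched background. On the root side these numbers were 12 (4.84%) and 4 (3.85%). Both members were 5-fold or more higher in shoot in 7 pairs and in root in 2, and no pair went in opposite directions by that measure.

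On the sequences without counts, the 3 strongest pairs had like levels in both tissues or were higher in pooled root. On sequence 15, with a gap of 40 bp, the minus-strand region at 12887882 to 12887999 had 524 TPM in shoot and 511 TPM in root, beside a plus-strand region at 12888039 to 12888041 with 1.31 TPM in shoot and 4.01 TPM in root. On sequence 20, with a gap of 613 bp, the minus-strand region at 50585867 to 50585914 had 16.3 TPM in shoot and 38.7 TPM in root, and the plus-strand region at 50586527 to 50586583 had 308 TPM in shoot and 611 TPM in root. On sequence 16, with a gap of 896 bp, the minus-strand region at 38949078 to 38949122 had 181 TPM in shoot and 210 TPM in root. Its plus-strand partner at 38950018 to 38950099 had 48.3 TPM in shoot and 64.8 TPM in root. In these pairs the same strand was the stronger in both tissues.

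The 124 pairs with counts took a like share of each library. Their members held 0.996% and 1.01% of the tags in shoot, against 0.907% and 1.04% in root. The means were 1.00% ± 0.0102 in shoot and 0.976% ± 0.0968 in root (SD, n = 2 each). The difference of 0.0279 percentage points was smaller than the spread between the root libraries (exact permutation test, two-sided, p = 1, where 2 against 2 libraries cannot go below 0.333). Without root replicate 1 it was -0.0405 percentage points, and without root replicate 2 it was 0.0963. Over all 352 members, the share of the pooled TPM in merged regions was 1.15% in shoot and 1.17% in root.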

How the data were processed

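Per the file headers, the deposited counts are whole tags, 1 column per library, for each start position on each strand. It held 479104 positions, 67.3% of the 711688 positions with TPM, on sequences 1 to 12, the plus strand of sequence 13 and its minus strand up to position 31697699. Its last line, 1 in number, was broken and was not read. TPM were deposited as 1 value for each position and tissue, over pooled libraries, per the file headers, and the deposited cluster lists give start, end and a TPM score, with 17081 clusters for shoot and 19249 for root. The aligner, the genome build, the clustering software and the treatment of reads with several map positions are not given in any of the sources used here.

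Here, counts and TPM were summed over merged regions, whose coordinates are those of the files. The tests were run in R 4.3.3 with edgeR 4.0.16 (quasi-likelihood test, TMM factors of 0.899 and 0.852 in shoot and 1.13 and 1.16 in root, filterByExpr, threshold 0.05) on all regions, with tissue as the only term and log2 differences as shoot minus root. The SE of a log2 difference was derived from the test, as the absolute difference divided by the square root of the F statistic. The balance between members was tested with diffSpliceDGE on the same fit. Folds against a tissue with no tags used a floor of 3 counts over its 2 libraries, and intervals of shares and ratios were exact at 95% (Clopper-Pearson). The scripts were tested on simulated counts. Alternatives were RLE size factors, total tags, no count filter, a replicate block, DESeq2 1.42.0, other merging and gap limits, other pseudocounts and leaving out each library.

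The pairs described one by one were chosen by rule. They were the 5 with the highest summed CPM, the 4 per tissue with both members called and the largest smaller difference, up to 4 with opposite calls, and the 4 with the largest called change of balance. In all but the first of these lists, members had to reach 20 CPM in a tissue. The 4 strongest without a call and the 3 strongest without counts were added, and other pairs are marked in the text. The pairs, lists and rules were chosen with earlier results of these data known.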

Additional observations from a re-analysis of the deposited data

How the results depend on the processing

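Depth and the number of libraries limit the calls. Of the 248 members with counts, 139 were too low to test, a tissue has 2 libraries, and a member that was not called may still differ. Without the count filter 59 members were called higher in shoot (23.8%, with 18.6% over all covered regions) and 25 in root (10.1%, with 15.4%), with 14 pairs called in the same direction and 3 in opposite directions. RLE size factors gave 2 opposite pairs. DESeq2 called 34 members higher in shoot and 9 in root, with 0 opposite pairs. For DESeq2, the replicate block, the leave-outs and the shorter gaps, shares over all regions are not given here. Their counts of called members therefore do not show whether the excess in shoot held. With the replicate block 42 members were higher in shoot and 14 in root, 7 pairs went in the same direction, 2 in opposite directions, and the balance was called in 22. The replicate numbers pair nothing in the labels, and deviations of same-numbered libraries had a correlation of -0.055. Leaving out 1 library at a time gave 35 to 45 members higher in shoot, 12 to 17 in root, 5 to 8 pairs in the same direction, 1 to 3 in opposite directions and 14 to 21 with a called balance.

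Gaps of up to 500 bp held 94 pairs, with 20 members higher in shoot, 5 in root, 4 pairs in the same direction, 0 opposite and 7 with a called balance. Clusters of 5 TPM or more formed 40 pairs. A median absolute log2 ratio of 2.18 in shoot and 1.91 in root was found over all covered pairs, and of 2.84 in root at gaps of up to 500 bp. Without each library in turn it was 1.55 to 1.56 in shoot and 2.06 to 2.18 in root, r between partners was 0.27 to 0.44, and the difference in tag share -0.0405 to 0.0963 percentage points. Only pairs with tags of both members in both tissues gave r of 0.19. A pseudocount of 2 TPM left 5 pairs with both members 5-fold higher in 1 tissue. Members without a call changed sign in places: on sequence 6 the minus-strand member at a gap of 139 bp (-0.19) and the plus-strand member at 453 bp (-0.26) and on sequence 7 the plus-strand member at 763 bp (-0.12) with scaling to total tags, and the second of these also without root replicate 2 (-0.10) and shoot replicate 2 (-0.22), within a range of -0.22 to 0.46 over the 4 leave-outs. The leave-outs of shares and ratios, the number of pairs up to 500 bp the ratios over the same 26 pairs and the r without zeros were chosen after seeing the data. The causes were not tested.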
